A study of Homo sapiens with 3 samples.

Results

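The genes described here are 9 well-known transcriptional targets of the tumour suppressor p53: CDKN1A, MDM2, ZMAT3, TP53I3, SESN1, RRM2B, GDF15, FAS and BBC3. They were taken by name from the platform annotation, and all 36 of their probe sets among the 49395 on the array were kept. The 9 genes belong to 18132 that had a probe set with a single gene symbol. The cells were KYSE150, an established human line of esophageal squamous cell carcinoma. They had been transfected to overexpress the splice form LOXL2 Δe13, wild-type LOXL2, or nothing beyond an empty vector, and each of these 3 groups was hybridised to 1 PrimeView array. LOXL2 is a secreted amine oxidase of the lysyl oxidase family. Whether the transfected cells were a pool or a clone, and how long the genes had been expressed, are not given in the sources used here.

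p53 is a transcription factor that is held low by the ubiquitin ligase MDM2 and is stabilised by DNA damage and other stresses. It binds paired short motifs near its targets and raises genes that halt the cell cycle, repair or spare DNA precursors, limit oxidative damage or trigger apoptosis. Several of these genes also answer to other inputs: GDF15 and BBC3 are also known targets of the endoplasmic reticulum and amino acid stress response, and CDKN1A is raised by many growth and differentiation signals. In squamous epithelium the relative p63 can act on some of the same promoters.

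The known p53 element is a tandem pair of 10-base motifs. It was searched for, on a consensus that reads alike on both strands, in RefSeq promoter windows (GRCh38.p14) that run from 250 bases before to 50 bases after each annotated start. A match had to carry the C and G at the core of each motif and could hold up to 3 mismatches over 20 bases, a limit set after the sequences had been looked at. Windows were available for 8 of the 9 genes, 16 in all, and 5 of these windows held a match, against 1.12% of all 35116 windows. The matches lay in FAS, MDM2, SESN1 and GDF15, and they are shown because these 4 genes did not differ in the same direction on the arrays. Capitals mark the match and lower case the bases beside it.
FAS, chr10:88991289-88991348, plus strand: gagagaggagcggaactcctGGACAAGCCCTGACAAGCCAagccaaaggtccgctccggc
MDM2, chr12:68808903-68808962, plus strand: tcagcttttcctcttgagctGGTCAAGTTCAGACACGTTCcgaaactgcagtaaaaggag
SESN1, chr6:109008998-109009057, minus strand: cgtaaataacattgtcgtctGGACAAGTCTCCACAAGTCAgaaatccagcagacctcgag
GDF15, chr19:18386186-18386205, plus strand: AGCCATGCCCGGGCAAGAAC
The FAS match begins 122 bases before an annotated start and has 2 mismatches. The MDM2 match also has 2 mismatches and begins 94 and 101 bases before 2 neighbouring annotated starts, so it was found in 2 windows. The SESN1 match has 3 mismatches and begins 49 bases before a start. The GDF15 match has 3 mismatches and lies 28 bases past the start, within the transcript. No match in the other windows says only that these letters are not within these windows.

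Signals are log2 values after robust multi-array averaging (RMA). The array medians lay between 5.93 and 5.95. An expression floor was set at 5.94, the median signal over the arrays without control spots, and at least 1 of the 2 signals compared had to reach it. The probe set with the highest mean stands for its gene, and a gene counts as apart at 1.5-fold, which is 0.58 on the log2 scale. With 1 array per group no test and no error between cultures could be had, so higher and lower describe these 3 arrays. Probe sets that read 1 gene differed from each other with a standard deviation of 0.13 for Δe13 against the empty vector, 0.16 for wild type against it and 0.13 between the LOXL2 forms, and this is the only repeat measurement. Fewer cells expressing a gene and less RNA per cell cannot be told apart. LOXL2 probe set 11718833_a_at read 10.77 on the Δe13 array, 10.22 on the wild-type array and 5.06 on the empty vector array, and 11718834_at read 7.94, 8.07 and 5.38. Probe set 11751288_a_at was high on the wild-type array alone, at 7.41, 14.05 and 7.46, and 11718832_a_at was raised on neither LOXL2 array, at 8.73, 8.32 and 8.81. Of the squamous markers, 6 of 8 could be read and all 6 were above the floor, while 0 of 4 leukocyte, 1 of 5 fibroblast and 1 of 4 endothelial markers had a mean above it. The epithelial markers KRT5 and CDH1 read 11.62 and 11.91 on the empty vector array, and KRT14 read 7.30, 7.08 and 7.76 on the Δe13, wild-type and empty vector arrays. The fibroblast and endothelial markers above the floor were PDGFRB, at 6.17, 6.04 and 6.08, and PECAM1, at 6.22, 5.86 and 5.94. Of the members, 8 had a mean above the floor, and TP53I3 had a mean of 5.71, below it.

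Few of the p53 targets differed by much, and they did not share a direction. GDF15 was 1.53-fold lower on the wild-type array than on the empty vector array, and TP53I3 read 6.12 on the wild-type array and below the floor on the others, so that Δe13 minus wild type was -0.77. No other member was 1.5-fold apart in any comparison. The cell cycle and feedback genes CDKN1A, MDM2 and ZMAT3 were slightly higher on both LOXL2 arrays than on the control. The secreted factor GDF15 and the cell death genes FAS and BBC3 were, on their brightest probe sets, lower on both. A further probe set of FAS above the floor, and 1 of GDF15 with a mean at the floor, were higher on both. Both differences use the same empty vector array, so they are not separate observations.

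**Figure D1:**
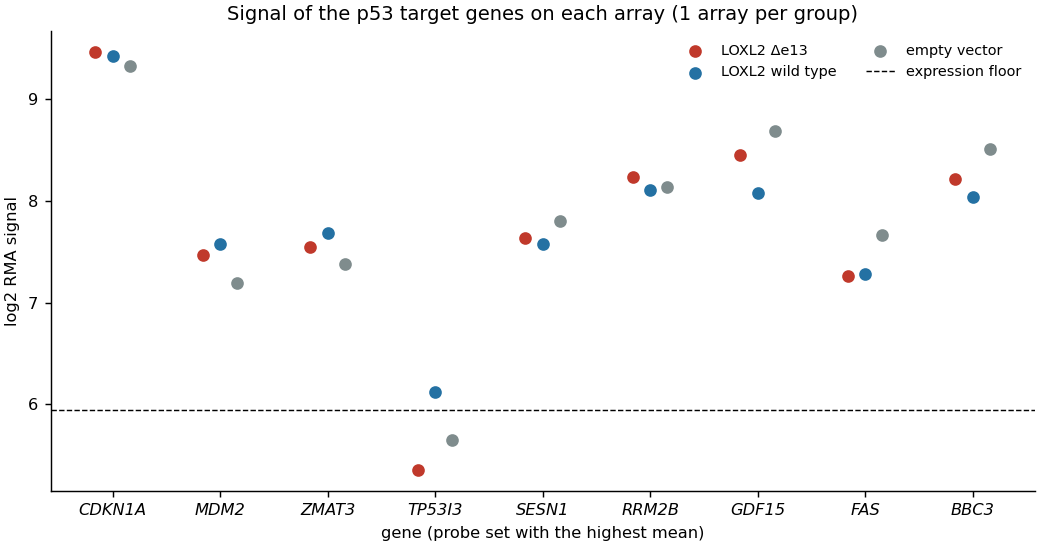
Log2 RMA signal (vertical axis) of the 9 p53 target genes on their probe set with the highest mean; each point is 1 array, red for LOXL2 Δe13, blue for wild-type LOXL2 and grey for the empty vector, and the dashed line is the expression floor of 5.94. The empty vector point is the lowest of the 3 for CDKN1A, MDM2 and ZMAT3 and the highest for SESN1, GDF15, FAS and BBC3; levels of different genes are not comparable because they come from different probes.

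CDKN1A encodes p21, the inhibitor of cyclin-dependent kinases through which p53 halts the cell cycle. Its probe set 11715388_s_at read 9.47 on the Δe13 array, 9.43 on the wild-type array and 9.33 on the empty vector array. The second, 11715387_at, read 8.06, 7.99 and 7.89 in the same order. Both probe sets therefore placed Δe13 highest and the control lowest. The differences were small. Against the control they were 0.14 and 0.17 for Δe13 and 0.10 on either probe set for wild type, and Δe13 exceeded wild type by 0.04 and 0.07. Differences at least as high as the 0.14 of the main probe set were seen in 18.3% of all genes.

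MDM2, which marks p53 for degradation and is itself raised by p53, had 11 probe sets, of which 4 had a mean above the floor. The brightest, 11731565_x_at, read 7.47 on the Δe13 array, 7.57 on the wild-type array and 7.19 on the empty vector array. All 4 ran in that order, with the wild-type array highest and the control lowest. Their differences from the control ranged from 0.04 to 0.36 for Δe13 and from 0.15 to 0.55 for wild type, and Δe13 minus wild type ranged from -0.27 to -0.08. The brightest gave 0.28 and 0.38 against the control, and 5.18% and 7.44% of all genes were at least as high. The 7 dim probe sets did not share a direction. Where the median level over all 11 was taken for the gene, it fell on the dim probe set 11731564_x_at and the sign turned in all 3 comparisons, to -0.01, -0.21 and 0.20. The median of the 11 differences was 0.13, 0.03 and 0.06, so its sign turned between the LOXL2 forms and not against the control.

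ZMAT3, a zinc finger protein that binds RNA and takes part in splicing and transcript stability downstream of p53, had 1 probe set above the floor. It read 7.55 on the Δe13 array, 7.69 on the wild-type array and 7.38 on the empty vector array. The order was that of MDM2. Against the control these were differences of 0.17 and 0.30. The dim probe set 11742240_a_at ran in the same order at 5.30, 5.34 and 5.22.

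TP53I3, an oxidoreductase linked to the formation of reactive oxygen species in p53-driven apoptosis, had the widest range among the probe sets that represent the 9 genes, 0.77 on its single probe set 11749789_a_at, although 2 of the 3 signals lay below the floor. Among all member probe sets above the floor, 2 of GDF15 ranged more widely. The TP53I3 probe set read 5.35 on the Δe13 array, 6.12 on the wild-type array and 5.64 on the empty vector array. The wild-type array was the highest and was the only array above the floor for this gene, while Δe13 lay below the control. Wild type exceeded the control by 0.48, and Δe13 minus wild type was -0.77. Δe13 minus the empty vector was -0.29, with both signals below the floor. The gene entered the comparisons through the wild-type signal alone. With 1 dim probe set and no replicate, its differences have no second measurement, and at a floor of 7.86 the gene was no longer compared.

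SESN1, a sestrin that restrains growth signalling through mTORC1 and limits peroxide stress, read 7.64 on the Δe13 array, 7.58 on the wild-type array and 7.80 on the empty vector array. Both LOXL2 arrays were below the control, by -0.16 and -0.22. Its dim probe set 11719062_a_at differed by 0.00 and -0.07. Other sestrins, which are paralogues, did not follow: SESN2, also a known target of p53 and of the amino acid stress response, read 6.95, 6.78 and 6.51 on the Δe13, wild-type and empty vector arrays, so that both LOXL2 arrays were higher. Its differences were 0.44 and 0.27, with 2 of 2 probe sets higher in each comparison. SESN3 lay between 3.15 and 3.25, below the floor.

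RRM2B encodes p53R2, the small subunit of ribonucleotide reductase that supplies deoxynucleotides outside S phase. Its brightest probe set 11736192_at read 8.24 on the Δe13 array, 8.11 on the wild-type array and 8.14 on the empty vector array. None of its differences, 0.10, -0.03 and 0.13 for the 3 comparisons, exceeded the spread between probe sets. The second probe set above the floor, 11736193_a_at, read 6.63, 6.45 and 6.22, and its differences from the control were 0.40 and 0.22. The remaining 7 of its 9 probe sets were dim, and the median of the differences of all 9 was 0.10 for Δe13 and 0.21 for wild type against the control, so that the sign for wild type turned; between the LOXL2 forms it was -0.04, also turned. The ribonucleotide reductase subunits RRM1 and RRM2 were slightly lower on both LOXL2 arrays on their main probe sets. RRM1 read 10.81, 10.80 and 10.99, and RRM2 read 10.72, 10.65 and 10.88.

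GDF15, a secreted stress cytokine of the TGF-beta superfamily, was the member with the largest difference from the control. Its brightest probe set 11716664_x_at read 8.45 on the Δe13 array, 8.08 on the wild-type array and 8.69 on the empty vector array. Probe set 11716663_a_at read 7.85, 7.42 and 8.25, and 11716665_s_at read 7.31, 6.89 and 7.87. These 3 probe sets placed the control highest and wild type lowest, with differences of -0.24, -0.40 and -0.55 for Δe13 and -0.61, -0.83 and -0.98 for wild type. Among the 10881 genes compared, 0.754% were at least as low as the -0.61 of the brightest probe set. The remaining probe set that reached the floor, 11757729_s_at, went the other way against the control, at 6.07, 5.99 and 5.76. Its mean of 5.94 lay at the floor, and its empty vector signal lay below it. On all 4 the Δe13 array was higher than the wild-type array, by 0.08 to 0.43. The position of these probe sets along the transcript was not analysed here. By the distance between pairs of differences from the control, the 3 genes nearest to GDF15 among 10703 with a mean above the floor were EFHD2, LRP1 and RAC2, with distances of 0.02, 0.02 and 0.04 over the 3 arrays. Among so many genes some had to lie close, and these distances are below the probe set spreads of 0.13 and 0.16. The other GDF15 probe sets had other differences, so the nearest genes rest on the probe set chosen.

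FAS, the death receptor that recruits FADD and caspase 8, gave readings that depended on the probe set. Probe set 11725998_a_at read 7.26 on the Δe13 array, 7.28 on the wild-type array and 7.66 on the empty vector array. Both LOXL2 arrays lay below the control here, by -0.40 and -0.39. The second, 11725999_s_at, read 7.27, 7.20 and 7.14 and placed both LOXL2 arrays above the control, by 0.14 and 0.06. A direction for FAS against the control thus rests on the choice of probe set. The Δe13 and wild-type arrays were close on both, with differences of -0.01 and 0.07. Among the proteins that act with FAS, the initiator caspase CASP8 read 6.67, 6.76 and 6.39, higher on both LOXL2 arrays on that probe set, although 1 of its 2 probe sets above the floor was higher and 1 lower.

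BBC3 encodes PUMA, a BH3-only protein that frees BAX and BAK1 by binding the survival members of the BCL2 family. Its probe set 11727707_a_at read 8.21 on the Δe13 array, 8.04 on the wild-type array and 8.51 on the empty vector array. Probe set 11727706_a_at read 5.85, 5.59 and 6.23, so it reached the floor on the empty vector array alone. Both placed the control highest and wild type lowest. The differences were -0.30 and -0.38 for Δe13 and -0.47 and -0.64 for wild type. Δe13 minus wild type was 0.17 and 0.26, the latter with both signals below the floor. Among all genes, 3.76% and 2.13% were at least as low as the main probe set against the control for Δe13 and for wild type. The survival gene BCL2L1 read 8.92, 8.72 and 8.97, closest to the control on the Δe13 array, with -0.04 there and -0.24 on the wild-type array.

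**Figure D2:**
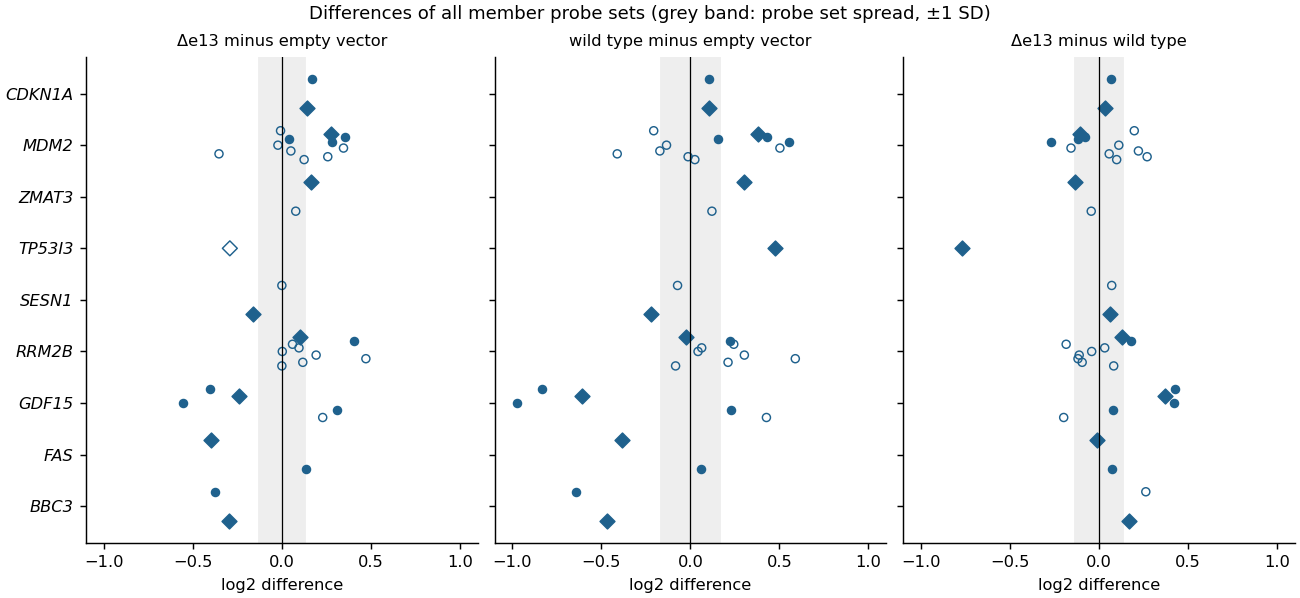
Log2 difference (horizontal axis) of all 36 probe sets, by gene, in the 3 comparisons; diamonds are the probe set that represents the gene, filled symbols reach the floor of 5.94 in that comparison, open symbols do not, and the grey band is 1 SD between probe sets of a gene. Filled symbols of CDKN1A, MDM2 and BBC3 stay on 1 side of 0 within each comparison, those of FAS lie on both sides, and 3 of the 4 filled symbols of GDF15 lie below 0 against the control.

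The members were then set against all genes. For Δe13 minus the empty vector 8 members reached the floor, with 4 higher and 4 lower and a median of -0.03, beside a median of -0.01 over all 10878 genes. The median over all 9 was -0.16, with TP53I3 included. At 1.5-fold 0 members were higher and 0 lower, where 0.359% of all genes were higher and 0.303% lower. For wild type minus the empty vector all 9 reached the floor, with 4 higher and 5 lower and a median of -0.03, beside 0.00 over all genes. At 1.5-fold 0 members were higher and 1 lower, where 2.02% of genes were higher and 0.919% lower. For Δe13 minus wild type 5 were higher and 4 lower, with a median of 0.04 beside -0.015 over all genes. At 1.5-fold 0 members were higher and 1 lower, where 0.184% and 0.12% of genes were. The 1 was TP53I3, counted through its wild-type signal alone, with its Δe13 signal below the floor. At the level of probe sets, 0 of 18, 4 of 19 and 1 of 18 of the members' probe sets at the floor were 1.5-fold apart in the 3 comparisons, where 0.797%, 3.27% and 0.397% of all named probe sets were. The medians of these probe sets were 0.12, 0.10 and 0.06, with 11 higher in each comparison, so against the control they had the opposite sign to the medians over genes; MDM2 and GDF15, with 4 probe sets each, weigh most in them. The 4 were 3 probe sets of GDF15 and 1 of BBC3, so they come from 2 genes. The BBC3 probe set was counted through its empty vector signal alone, with both LOXL2 arrays below the floor. The 1 of 18 between the LOXL2 forms was the TP53I3 probe set.

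**Figure D3:**
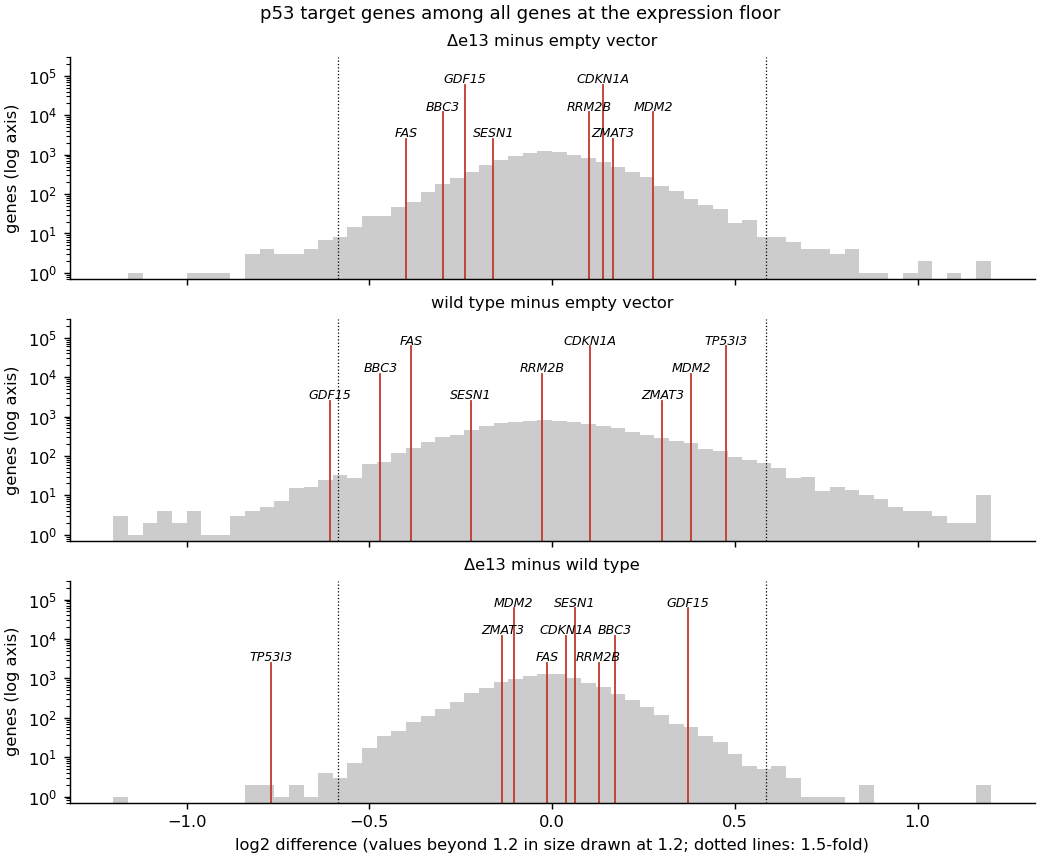
Histograms of the log2 differences of all genes at the expression floor (grey, with the number of genes on a log axis) in the 3 comparisons, with a red line for each p53 target gene. TP53I3 in Δe13 minus wild type (-0.77) and GDF15 in wild type minus the empty vector (-0.61) are the members beyond the dotted 1.5-fold lines; the heights of the red lines carry no value.

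GC-rich array background moved in the same order as GDF15, BBC3 and SESN1. The 8 background control probe sets with 18 or more G or C bases, by their names, were lower than on the empty vector array on both LOXL2 arrays, by medians of -0.06 for Δe13 and -0.23 for wild type, and higher for Δe13 than for wild type by 0.17. The other 15 background probe sets had medians of 0.00, -0.03 and 0.02 and did not share a direction. The part of this in the differences of GDF15, BBC3 and SESN1 was not tested. A loess correction for mean signal, centring and quantile normalization each left GDF15 at least 1.5-fold lower on the wild-type array. None of these corrections uses GC content, so they did not test the part of the background.

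Beyond the 9 members, 29 other established p53 targets had been listed, 27 of them with a named probe set. For Δe13 minus the empty vector 23 reached the floor, with 13 higher and 10 lower and a median of 0.02. For wild type minus the empty vector 12 of 22 were higher and 10 lower, with a median of 0.04, and between the LOXL2 forms 11 of 23 were higher and 12 lower on the Δe13 array. Only TIGAR and AEN were 1.5-fold apart in any comparison, and both were higher with LOXL2, AEN at that size on the wild-type array alone. Of all genes, 0.359% for Δe13 and 2.02% for wild type were 1.5-fold higher than the control. TIGAR, a phosphatase that lowers glycolytic flux and feeds the pentose phosphate pathway, read 8.08 on the Δe13 array, 8.33 on the wild-type array and 7.46 on the empty vector array. It was 1.54-fold and 1.83-fold higher on the LOXL2 arrays, with 2 of 2 probe sets higher in each. AEN, an exonuclease of the apoptotic nucleus, read 7.63, 7.96 and 7.31 on its single probe set. It was 1.57-fold higher on the wild-type array and 1.25-fold higher on the Δe13 array. TIGAR and AEN both placed wild type above Δe13, as MDM2 and ZMAT3 did. Lowest on this list against the control was cyclin G1, CCNG1, named after its values were seen, at -0.40 and -0.48. The BH3-only gene PMAIP1, also named after its values were seen, read 9.93, 9.60 and 9.69, higher than the control on the Δe13 array and lower on the wild-type array.

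**Figure D4:**
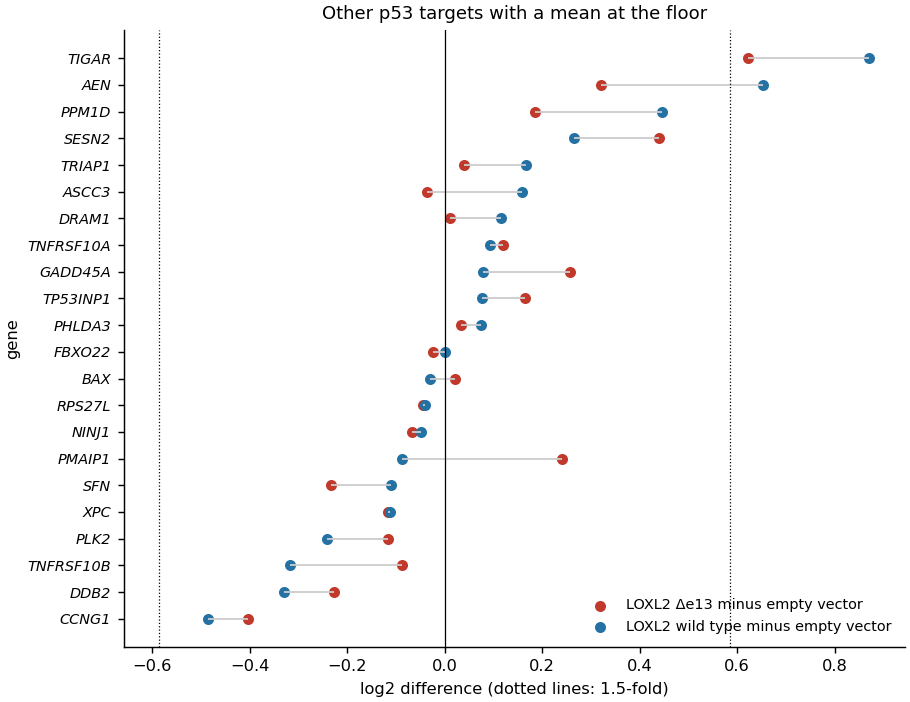
Log2 difference from the empty vector (horizontal axis) of the 22 other p53 targets with a mean above the floor, red for LOXL2 Δe13 and blue for wild-type LOXL2, with 1 array per group and a shared control array. TIGAR (0.62 and 0.87) and AEN (0.65 for wild type) pass the dotted 1.5-fold lines, and CCNG1 is lowest.

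Genes that act on p53 were read in the same way. Of 22 listed, 20 had a probe set and all 20 reached the floor, with 7 higher and 13 lower for Δe13 and 9 higher and 11 lower for wild type, medians of -0.04 and -0.01, and 0 at 1.5-fold in any comparison. Of all genes, 48.2% and 49.9% were higher on the Δe13 and wild-type arrays than on the control. At 1.5-fold, 0.359% of all genes were higher and 0.303% lower for Δe13, and 2.02% and 0.919% for wild type. Between the LOXL2 forms the shares were 0.184% and 0.12%, so 0 of 20 is near these shares. The p53 inhibitor MDM4, a relative of MDM2, read 8.08, 8.14 and 8.22 on the Δe13, wild-type and empty vector arrays. The paralogue TP73 read 6.98, 6.75 and 7.06. Of the acetyltransferases that act on p53, EP300 and CREBBP were higher and KAT5 lower on both LOXL2 arrays than on the control. EP300 read 6.53, 6.78 and 6.25, and CREBBP read 9.03, 9.21 and 8.68, with 4 of 4 probe sets higher in both comparisons with the control. KAT5, chosen after its values were seen, read 8.02, 8.08 and 8.25. PPP1R13L, the inhibitory member of the ASPP family that binds p53, read 8.66, 8.52 and 8.96, lower on both. The kinases ATR and HIPK2, which phosphorylate p53, were higher on the wild-type array by 0.24 and 0.29 and differed by -0.04 and -0.07 on the Δe13 array. On the Δe13 array 2 probe sets of HIPK2 at the floor were higher and 3 lower. Other p53 kinases, chosen after their values were seen, did not follow on the wild-type array on their main probe sets, with -0.25 for CHEK2, -0.17 for CHEK1 and -0.01 for ATM. For CHEK1 and ATM the direction rests on the probe set, with 3 higher and 3 lower for CHEK1 and 2 and 2 for ATM.

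The DREAM complex represses cell division genes when p21 is high, and its targets are the usual readout of p53 on the falling side. Of 15 measured, 12 were lower and 3 higher on each LOXL2 array than on the control, with medians of -0.17 and -0.25 and 0 at 1.5-fold, where 48.2% and 49.9% of all genes were higher. Between the LOXL2 forms 12 were higher and 3 lower on the Δe13 array, with a median of 0.10, where 45.2% of all genes were higher. The GC-rich background probe sets were also lowest on the wild-type array and highest on the empty vector array, and their part in this was not tested. Cyclin A2, CCNA2, read 9.70 on the Δe13 array, 9.66 on the wild-type array and 10.06 on the empty vector array. The mitotic phosphatase gene CDC25C read 8.34, 8.23 and 8.63, and the kinase AURKB read 9.40, 9.19 and 9.62. Cyclin B2, CCNB2, read 10.47, 10.29 and 10.74, and the replication helicase subunit MCM5 read 6.08, 5.89 and 6.25. These 5 genes lay lowest on the wild-type array, CCNA2 by only 0.04 against Δe13. Higher on both LOXL2 arrays, and named after their values were seen, were FOXM1, by 0.07 and 0.15, and MYBL2, by 0.04 and 0.05. Of the FOXM1 probe sets 1 was higher and 2 lower in each comparison with the control. The other higher gene was CDC20 for Δe13 and CENPA for wild type. CDKN1A was highest on the Δe13 array, but by 0.04 over wild type, within the spread of 0.13 between probe sets. Any part of p21 in the DREAM targets was not tested. Partners and paralogues of the members, among them the kinases that p21 inhibits, the FAS signalling proteins and the BCL2 family, reached the floor for 19 of 23 genes. Of these, 7 were higher and 12 lower for Δe13 against the control, 6 higher and 13 lower for wild type, and 0 were 1.5-fold apart. The shares of all genes that were higher than the control were 48.2% and 49.9%. The small 1.5-fold shares given above for all genes apply to this 0 and to that of the DREAM targets. Of the cell cycle partners, the p27 gene CDKN1B was lower by -0.20 and -0.38 and CDK6 higher by 0.15 and 0.38 on the Δe13 and wild-type arrays.

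Since GDF15 and BBC3 are also known stress response targets, 9 genes of that response were read beside them. DDIT3, the transcription factor CHOP, was higher than the control by 1.37 on the Δe13 array and 1.03 on the wild-type array. DDIT4, a stress-induced brake on mTORC1, read 12.54, 12.00 and 12.66, which was -0.12 and -0.66, the order seen for GDF15. In all 6 of the 9 were higher and 3 lower on each LOXL2 array, where 48.2% and 49.9% of all genes were higher. The 3 lower were DDIT4 and, named after their values were seen, ASNS, at -0.29 and -0.43, and CHAC1, at -0.04 and -0.16. The 6 higher were DDIT3, SESN2 and, also named after their values were seen, ATF3, PPP1R15A, TRIB3 and ATF4. ATF3 was higher by 0.50 and 0.47 and PPP1R15A by 0.40 and 0.29 on the Δe13 and wild-type arrays. On their brightest probe sets GDF15 and BBC3 were lower on both LOXL2 arrays, as DDIT4, ASNS and CHAC1 were, unlike the 6 higher. Which input acted on GDF15 and BBC3 was not tested.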

How the data were processed

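The authors deposited RMA signals on the log2 scale, per the submitters' processing notes, which name no version. RMA removes background, normalizes across arrays and combines probes into probe sets, so a shift common to most genes would not show. Total RNA was labelled with biotin, per the labels' protocols. Gene names came from GEO's platform annotation, with symbols brought up to date by Entrez ID (RefSeq, GRCh38.p14). This gave 44988 probe sets 1 symbol and 1832 several, 2473 stayed unnamed and 102 were controls. The number of arrays limits the precision, and dim signals hold much background, which compresses folds.

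Named beside the 9 members were genes of fixed lists that were 1.5-fold apart in any comparison, or else the 2 largest differences per comparison, with a few paralogues. The 9 members, lists and rules were chosen with earlier results of these data known. Counts were tested on simulated data with planted shifts larger than 1.5-fold, in genes well above the floor. The simulated noise was smaller than the spread between probe sets here. This checked the counting steps and not the calls near the threshold or the floor. Alternatives were the median level over a gene's probe sets, removing the floor or raising it to the 75th percentile, centring, quantile normalization, loess with a span of 0.3, a 2-fold threshold and, added after seeing the data, leaving out probe sets with names ending in _s_at or _x_at, which can share probes with other transcripts. Python 3.11.15 was used with numpy 2.4.6, pandas 2.3.3, statsmodels 0.14.6 and matplotlib 3.10.9.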

Additional observations from a re-analysis of the deposited data

How the results depend on the processing

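No paired analysis was possible because each group has 1 array. The GDF15 call in wild type minus the empty vector kept its direction and its side of the 1.5-fold threshold under every alternative run except the 2-fold threshold, where 0 members were lower. The TP53I3 call in Δe13 minus wild type was likewise lost at 2-fold, with 0, and with the floor at the 75th percentile, also with 0, since its signals lie below that floor. The median of the members for Δe13 minus the empty vector moved to -0.16 with no floor, where TP53I3 enters, and to -0.16 without the _s_at and _x_at probe sets, where 7 members were compared. For wild type minus the empty vector it moved to -0.25 with the 75th percentile floor, where 4 members were compared. Of 189 differences of single members under the alternatives, 7 changed sign: those of MDM2 in all 3 comparisons, of RRM2B in 2 and of FAS in Δe13 minus wild type under the median level over a gene's probe sets on each array, which can fall on different probe sets, and of FAS in that comparison under quantile normalization. Without the _s_at and _x_at probe sets GDF15 was -0.40 for Δe13 and -0.83 for wild type against the control, and MDM2 0.04 and 0.15. Signals near the floor limit what can be read of TP53I3 and of the 19 member probe sets with a mean below it.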
